A study of Danio rerio with 9 samples.

Results

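The wild-type zebrafish embryo baseline was described from 3 RNA-seq libraries of unmodified embryos, out of 9 libraries in the series. The members were chosen by their genotype label alone, so no measured value entered the choice. The study compared kdm4aa knockout and kdm4ab knockout embryos with wild type, 3 libraries each, in order to find genes downstream of these histone demethylases; the knockout libraries were not used here. Each wild-type library was made from total RNA of whole embryos, from which messenger RNA was taken by its poly(A) tail. The labels give their genotype as wild type and name no edited allele and no treatment. Strain, embryonic stage, the number of embryos per library and the clutches they came from are left unstated in the labels, so the spread between replicates may be partly technical.

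A zebrafish embryo starts life on RNA and protein that its mother loaded into the egg. Its own genome is switched on during the blastula stages, when the maternal factors Nanog, Pou5f3 and SoxB1 proteins open chromatin at the first genes to be transcribed. Nodal, Fgf, Wnt and BMP signals then lay out the germ layers and the axes, and gastrulation movements shape the body. Somites, nervous system, blood and organs follow later, each with its own regulators and its own abundant end products. A whole-embryo RNA profile therefore holds maternal RNA, early zygotic RNA and, at later stages, tissue-specific RNA side by side. In such bulk RNA, fewer cells of a type and less RNA per cell cannot be told apart.

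The 3 libraries held 40555109, 38509567 and 45298764 gene counts in replicates 1, 2 and 3, an order kept for all triplets of values that follow. Levels are CPM (counts per 1000000), the count of a gene scaled to a common library total. At these totals 1 CPM stood for 40.6, 38.5 and 45.3 counts. A gene was counted as present at 1 CPM or more in every library, and near absent at 0.1 CPM or less in every library. A gene without any count could still have had up to 3 counts by chance, which is a limit of 0.0740, 0.0779 and 0.0662 CPM and covers counting error only. CPM is not divided by gene length, so levels are set against these thresholds or between libraries, and no gene is ranked against another by abundance of its transcript. Symbols are printed as the reference table gives them, many of them in human-style capitals, with the Ensembl identifier where a symbol has more than 1 entry.

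Of 32520 genes in the table, 13988 (43.0%) were present in every library. Their number was close in the 3 libraries taken singly, with 14570, 14600 and 14667 genes at 1 CPM or more. Another 10214 genes (31.4%) were near absent, and 7059 (21.7%) had no count in any library. A mean of 10 CPM or more was reached by 9284 genes, and 100 CPM or more by 2715. The median gene had a mean of 0.505 CPM. The share of 43.0% present is the background for the counts of list, family and marker genes that follow. The counts were spread over many genes: 1128, 1223 and 1184 genes held 50% of all counts, and 5550, 5721 and 5676 genes held 90%.

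**Figure D1:**
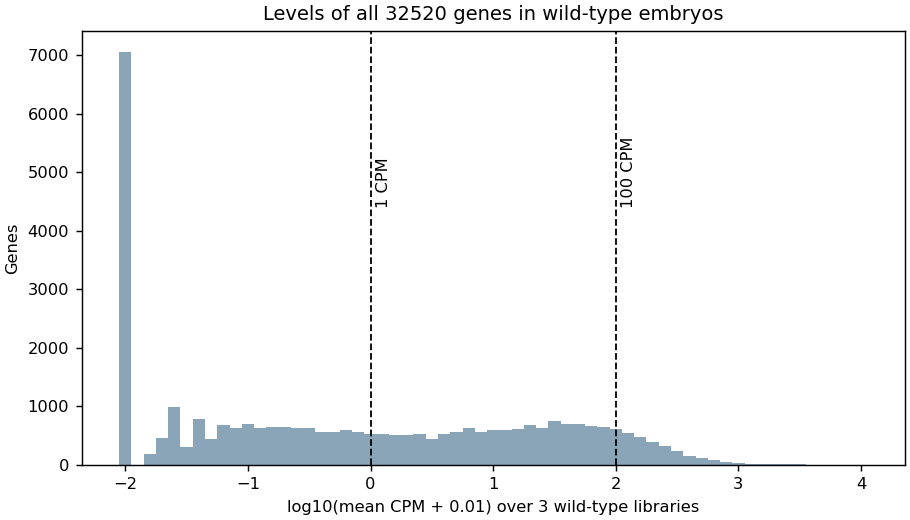
Histogram of the mean level over the 3 wild-type libraries for all 32520 genes; the horizontal axis is log10(mean CPM + 0.01), the vertical axis the number of genes, and dashed lines mark 1 and 100 CPM. The column at the left edge holds the 7059 genes without a count, and the rest form a broad plateau that falls away above 100 CPM.

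The 20 genes with most counts took 5.08%, 4.93% and 5.10% of each library (5.04 ± 0.0948%, SD, n = 3). MT-CO1, a mitochondrially encoded subunit of cytochrome c oxidase, had the most counts, with 6921, 7857 and 7717 CPM (7498 ± 505). MT-CYB (2402 ± 212 CPM), MT-CO3 (2379 ± 137 CPM) and MT-CO2 (2022 ± 139 CPM), further subunits of the respiratory chain, were also among the 20, and all 3 had their lowest value in replicate 1, as MT-CO1 did.

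Proteins that bind, package or remodel RNA made up much of the remaining group. They included hnrnpa0l (3123 ± 121 CPM), HNRNPAB (ENSDARG00000099865, 2227 ± 116 CPM), khdrbs1a (2996 ± 224 CPM), cirbpb (1855 ± 65.9 CPM) and the RNA helicases DDX5 (2025 ± 213 CPM) and ddx3xb (1614 ± 51.2 CPM). PNRC2, a factor of mRNA decapping and decay, had 2092, 1967 and 2252 CPM (2104 ± 143), and ncl, the nucleolar protein nucleolin, 1919, 1704 and 1757 CPM (1793 ± 112). Translation and protein folding were represented by the elongation factor eef1a1l1 (3423 ± 154 CPM) and the chaperone HSPA8 (ENSDARG00000068992, 2388 ± 9.68 CPM). The chromatin proteins hmga1a (2824 ± 65.0 CPM) and CTCF (1757 ± 149 CPM) and the mitotic cyclin CCNA2 (1669 ± 134 CPM) were in the group as well. HNRNPAB and HSPA8 each have another gene under the same symbol, and reads shared between such copies may be split.

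Regulators of pluripotent cells were also among the 20. SALL4, a zinc-finger factor of embryonic stem cells, had 2397, 2035 and 2266 CPM (2233 ± 184). The homeobox factor nanog had 2477, 2262 and 2398 CPM (2379 ± 109). Both were lowest in replicate 2.

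**Figure D2:**
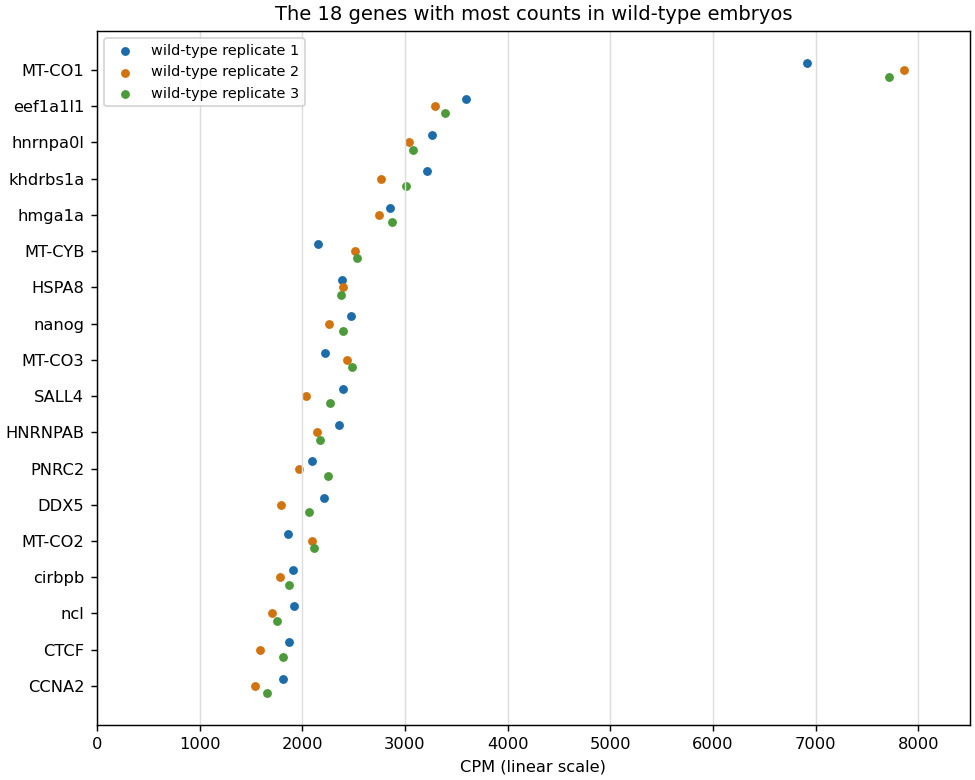
CPM (linear axis) of the 18 genes with most counts, with 1 point for each of the 3 wild-type libraries. MT-CO1 (mean 7498 CPM) stands alone, the other genes have means between 1669 and 3423 CPM, and the points of a gene lie close together.

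Maternal activators of the zygotic genome were all well above the threshold. Beside nanog, pou5f3, the zebrafish Oct4-related factor, had 1150.04, 1012 and 1117 CPM (1093 ± 72.1). The SoxB1 gene sox19b, whose mRNA is loaded into the egg, had 420, 563 and 465 CPM (483 ± 73.5). These 2 showed opposite orders: pou5f3 was lowest in replicate 2, where sox19b was highest.

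Oocyte and egg transcripts were nearly complete. Of 25 matched genes, 24 were present, with a median mean level of 81.7 CPM against 0.505 CPM over all genes. The cyclins CCNB1 (1078, 1067 and 1050 CPM) and CCNA1 (933, 1009 and 950 CPM), which drive meiotic and cleavage divisions, had the most counts of this list. They were followed by the RNA-binding repressor YBX1 (855 ± 9.58 CPM), the oocyte linker histone h1m (720 ± 26.2 CPM), the mRNA-stabilising protein IGF2BP3 (492 ± 9.69 CPM) and gdf3, the maternal Nodal co-ligand (491 ± 6.93 CPM). Fewest counts were those of npm2a, an egg nucleoplasmin (13.3 ± 1.32 CPM), MOS, the meiotic arrest kinase (13.1 ± 2.87 CPM), and hwa, the maternal dorsal determinant huluwa, at 0.814, 1.95 and 1.35 CPM (1.37 ± 0.567). Only hwa missed the threshold, in replicate 1.

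The egg coat genes, which encode zona pellucida glycoproteins made in the ovary, were all present (10 of 10). They ran, by counts, from zp3c at 88.4, 85.3 and 98.5 CPM (90.7 ± 6.89) to zp2.1 at 3.50, 2.57 and 1.92 CPM (2.66 ± 0.795). Among all 18 genes named as zona pellucida proteins, 17 were present; zp3d.1 had the most counts, with 109, 123 and 114 CPM. The summed level of the 18 was 650, 679 and 696 CPM.

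Germ plasm and germ cell genes were present without exception, 15 of 15, with a median of 54.0 CPM. These genes encode the RNA granules that mark the future germ line. DDX4, the helicase Vasa, had 373, 322 and 347 CPM (347 ± 25.3). The Tudor-domain organisers of germ granules followed, with TDRD6 at 135, 190 and 146 CPM (157 ± 29.2), tdrd7a at 118, 130 and 117 CPM (122 ± 7.47) and TDRD1 at 93.7, 130 and 104 CPM (109 ± 18.7). All 3 of them were highest in replicate 2, whereas DDX4 was lowest there. The members with fewest counts were tdrd5 (29.4 ± 2.1 CPM), DND1, which protects germ cell mRNA from microRNAs (21.9 ± 0.788 CPM), and NANOS3, a germ cell translational repressor (8.77 ± 2.0 CPM). CXCR4, the chemokine receptor that guides both germ cells and endoderm, had 147 ± 13.9 CPM (ENSDARG00000057633) and 92.8 ± 12.1 CPM (ENSDARG00000041959) in its 2 entries.

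Zygotic RNA was present beside the maternal RNA. Of 27 genes known as early zygotic targets, 26 were present, with a median of 48.4 CPM. The most counts were those of inka1a, an inhibitor of Pak4 kinase, with 432, 332 and 413 CPM (392 ± 52.7). The T-box mesoderm factor tbx16 had 415, 310 and 389 CPM (371 ± 54.5), and grhl3, a grainyhead factor of the embryo's outer layer, 308, 204 and 296 CPM (269 ± 56.7). In all 3 genes replicate 2 was the lowest library, apart from the other replicates, which lay close together.

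SOX11, a SoxC factor of early ectoderm and brain, had 321, 254 and 336 CPM (ENSDARG00000077811) and 244, 205 and 223 CPM (ENSDARG00000095743). The SoxB1 gene sox19a had 199, 150 and 194 CPM (181 ± 26.8). Again replicate 2 was lowest. The fewest counts were those of FOXD3, a factor of pluripotent and neural crest cells (19.5 ± 1.17 CPM), sp5l, a zinc-finger target of Wnt signals (1.3 ± 0.185 CPM), and SOX2 at 0.444, 0.987 and 0.839 CPM (0.756 ± 0.281), the only matched gene of the list under the threshold. SOX3, another SoxB1 gene, had 112, 89.5 and 122 CPM, so sox19b, sox19a and SOX3 were present while SOX2 was not.

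The listed ligands, co-receptor and inhibitors of the Nodal pathway, which induces mesoderm and endoderm at the embryo's margin, were all present. Nodal receptors and Smad proteins were not on the list. The Nodal ligands ndr1 and ndr2 had 13.8, 11.7 and 15.3 CPM (13.6 ± 1.82) and 7.13, 7.92 and 10 CPM (8.35 ± 1.48). Their co-receptor tdgf1, known as one-eyed pinhead, had 275, 246 and 285 CPM (269 ± 20.5). The feedback inhibitors lft1 (14.4, 10.6 and 14.1 CPM) and lft2 (9.96, 6.88 and 13 CPM) were present as well. All of these had their lowest value in replicate 2, other than ndr2, which was lowest in replicate 1. Among forkhead factors foxh1, the transcriptional partner of Smad2 in Nodal signalling, had the most counts of 65 genes, with 331, 307 and 323 CPM (320 ± 12.2).

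Endoderm factors were partly present, 7 of 10 entries. The 7 include both CXCR4 entries, which came from the single list name cxcr4a and are also counted with the germ cell genes. The mix-type homeobox gene mixl1 had 67.8, 48.9 and 59.9 CPM (58.9 ± 9.50), and the forkhead factor foxa3 39.6, 31.5 and 38.2 CPM (36.4 ± 4.32). The zinc-finger factors GATA5 (4.71, 4.78 and 9.32 CPM) and GATA6 (4.49, 4.23 and 4.66 CPM) were low but present, and so was sox32, the Sox factor that commits cells to endoderm (1.92, 2.65 and 2.34 CPM), which was outside the naming rule and chosen after its values were seen. The other 3 were under the threshold. FOXA2 had 0.912, 0.675 and 0.927 CPM, SOX17 had 0.296, 0.104 and 0.132 CPM, and FOXA1 had 0.0493, 0 and 0.132 CPM.

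Mesoderm factors were split in the same list, with 6 of 13 (46.2%) present, near the 43.0% of all genes. Besides tbx16, the T-box gene EOMES had 250, 280 and 266 CPM (265 ± 14.8) from ENSDARG00000006640 and 0.0524 ± 0.0704 CPM from its other entry, ENSDARG00000104243. EOMES RNA is known to be maternal in zebrafish, and its main entry was highest in replicate 2, unlike tbx16. The notochord homeobox gene noto had 37.6, 27.8 and 40.9 CPM (35.4 ± 6.78), and tbxta, the Brachyury gene no tail, 23.8, 18.2 and 25.9 CPM (22.6 ± 3.99). The presomitic genes msgn1 (3.63 ± 1.29 CPM) and tbx16l (2.48 ± 0.195 CPM) were low and present. The segment-polarity gene mespab (0.0329 ± 0.0569 CPM) and the Brachyury paralog entered as TBXT (0.0260 ± 0.0450 CPM) were at a few counts.

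Dorsal organizer genes were present in 6 of 11 cases and ventral genes in 11 of 15. On the dorsal side chrd, the secreted BMP antagonist chordin, had 74.6, 54.7 and 71.2 CPM (66.8 ± 10.6). The homeobox gene GSC, goosecoid, had 13.3, 9.22 and 17.4 CPM (13.3 ± 4.07). NOG, the antagonist noggin, had 7.20 ± 2.32 CPM from ENSDARG00000058819 and 0.0173 ± 0.0300 CPM from ENSDARG00000053528, and dkk1b, a secreted Wnt inhibitor, 7.11 ± 1.62 CPM. The Wnt-binding protein frzb (2.23 ± 0.390 CPM) and the LIM homeobox gene lhx1a (1.78 ± 0.350 CPM) were just above the threshold. By contrast hhex, a homeobox gene of dorsal endoderm and yolk layer, had counts in replicate 3 alone (0.0147 ± 0.0255 CPM), and the second entry of the activin antagonist FST, ENSDARG00000057992, had 0.0493 ± 0.0854 CPM.

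On the ventral side the ligand bmp7a had 96.8, 74.6 and 95.4 CPM (88.9 ± 12.4) and BMP2 47.3, 42.5 and 50.2 CPM (46.6 ± 3.89) from ENSDARG00000041430. The homeobox repressors of organizer genes were present too, vox at 89.5, 69.2 and 93.0 CPM (83.9 ± 12.9) and vent at 31.6, 27.5 and 34.2 CPM (31.1 ± 3.38). GATA3 had 109, 87.1 and 120 CPM (105 ± 16.7), and the BMP pseudoreceptor BAMBI 74.9 ± 4.20 CPM from ENSDARG00000055381. Each of these 6 genes was lowest in replicate 2. The ligand BMP4, chosen after its values were seen, had a mean of 1.33 CPM. The fewest counts of the list were those of the other entries of BAMBI (ENSDARG00000099677, 0.687 ± 0.258 CPM) and BMP2 (ENSDARG00000013409, 0.0831 ± 0.102 CPM), and eve1, a ventral homeobox gene of the margin (0.567, 0.130 and 0.883 CPM).

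**Figure D3:**
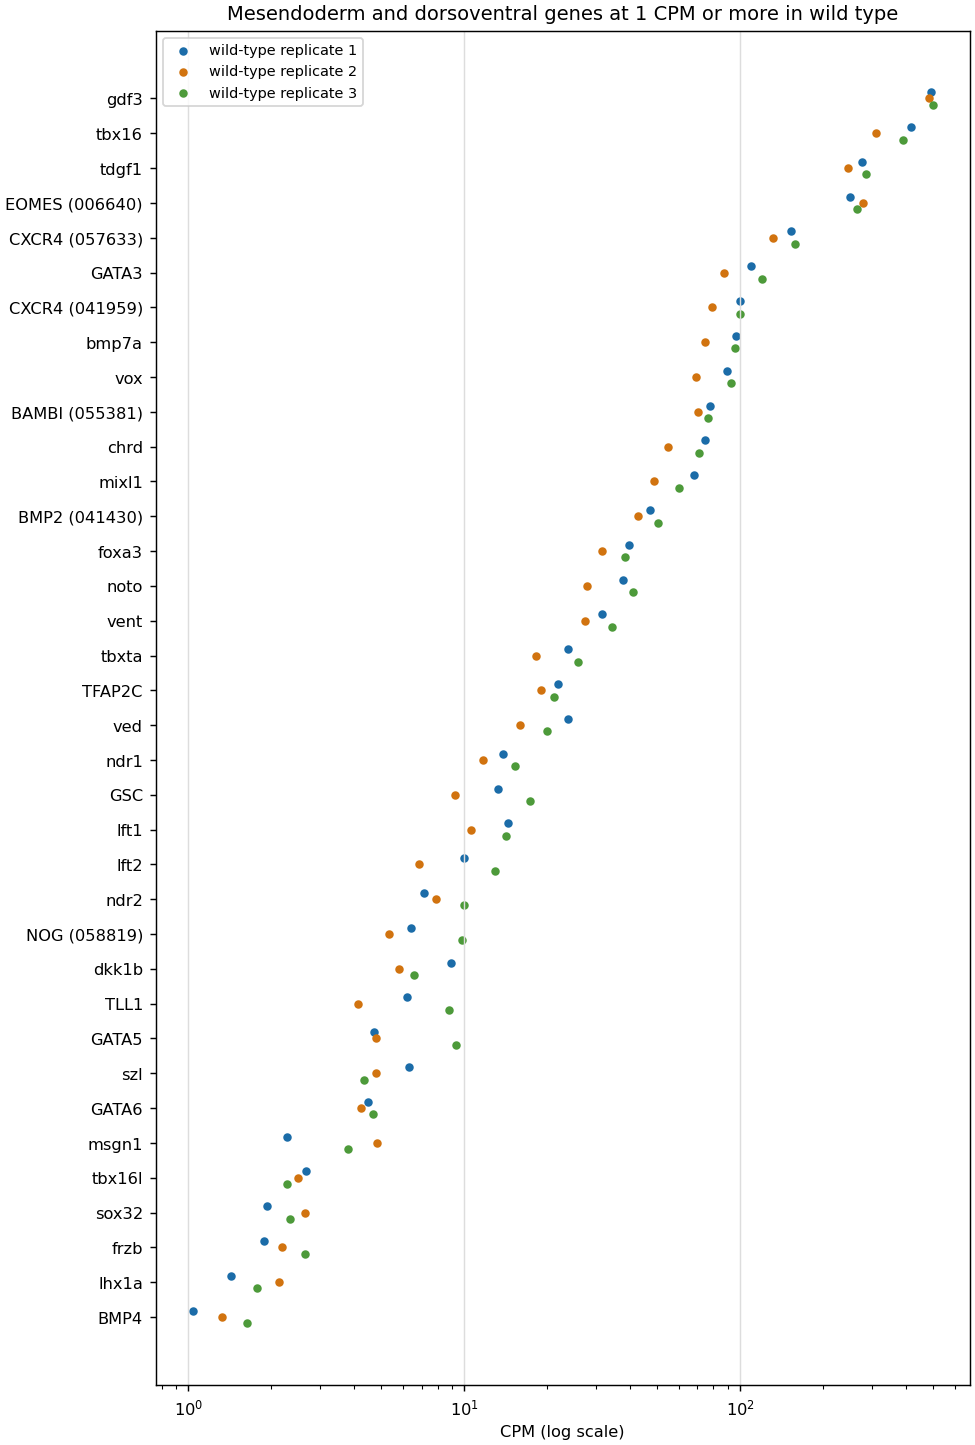
CPM (log axis) in the 3 wild-type libraries of the Nodal, mesendoderm and dorsoventral genes that reached 1 CPM, with 1 coloured point per library and the last 6 digits of the identifier where a symbol has several entries. Levels run from about 1 to 500 CPM, and the replicate 2 point lies left of the other 2 for most genes between 10 and 400 CPM.

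Fgf signalling was read through its ligands and its feedback targets. All 6 feedback genes were present: the receptor-like inhibitor IL17RD, known as Sef, had 128, 141 and 137 CPM (136 ± 6.77), the ETS factors etv5b and ETV4 had 129 ± 5.37 and 30.8 ± 1.37 CPM, and the MAP kinase phosphatase DUSP6 78.0, 53.9 and 79.6 CPM (70.5 ± 14.4). SPRY4 (12.8 ± 1.85 CPM) and SPRY2 (8.95 ± 1.67 CPM), sprouty inhibitors of the pathway, were present as well. Against 43.0% of all genes, 4 of 8 Fgf ligands (50%) were present. These were fgf17 (27.6, 25.2 and 31.5 CPM), FGF3 (6.97 ± 0.599 CPM), FGF8 (ENSDARG00000003399, 3.1 ± 0.478 CPM) and FGF4 (1.89 ± 0.491 CPM). The limb and fin ligand FGF10 had 0.654 ± 0.189 CPM in ENSDARG00000030932 and no count in ENSDARG00000100475.

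Wnt ligands were mostly under the threshold while Wnt targets were mostly over it. Among 8 ligands 2 were present. The non-canonical ligand wnt11f2, known as silberblick and needed for convergent extension, had 75.2, 57.4 and 82.7 CPM (71.7 ± 13). The other was WNT5B, also a non-canonical ligand, at 1.06, 1.35 and 1.3 CPM. The ligands WNT10B, WNT1 and WNT4 had 0.860 ± 0.602, 0.843 ± 0.277 and 0.335 ± 0.166 CPM. WNT8A, the zygotic ligand of the ventrolateral margin, had 0.0147 CPM and no count in its 2 entries. These are known to lie in tandem, and how reads over both were counted is unstated. The nuclear effector LEF1 had 95, 112 and 109 CPM (105 ± 8.99), the feedback scaffold AXIN2 47.8, 69.1 and 50.1 CPM (55.7 ± 11.7), and the Wnt deacylase NOTUM 10.4 ± 1.61 CPM. The posterior homeobox targets cdx4 (0.116 ± 0.0987 CPM), cdx1a (0.0831 ± 0.102 CPM) and cdx1b (0.0589 ± 0.102 CPM) were near the floor, so 6 of the 9 Wnt targets and inhibitors were present.

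Retinoic acid genes were present in 11 of 26 cases (42.3%), near the 43.0% of all genes. By step, 1 of 5 degradation genes, 4 of 7 genes of synthesis and uptake, and 6 of 14 receptors and binding proteins were present. CYP26A1, the enzyme that breaks retinoic acid down and that the study followed up, had 96.8, 75.8 and 89.2 CPM (87.3 ± 10.6), whereas the related enzymes CYP26C1 and CYP26B1 had 0.0879 ± 0.0335 and 0.0160 ± 0.0140 CPM. ALDH1A2, the main retinoic acid synthase of the embryo, was under the threshold at 0.123, 0.364 and 0.0442 CPM, and ALDH1A3 had no count. The retinol dehydrogenase RDH10, which makes retinal, was present from both entries, with 61.6 ± 4.18 CPM (ENSDARG00000012369) and 13 ± 1.25 CPM (ENSDARG00000058730). The retinol transporter STRA6 had 13.9 ± 2.06 CPM. Among receptors rarab (268 ± 2.39 CPM) and RXRB (118 ± 3.08 CPM) were steady across libraries, and rxrgb had no count.

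All 4 KDM4 histone H3 demethylases were present. KDM4B had 216, 186 and 193 CPM (198 ± 15.5), kdm4ab 123, 169 and 121 CPM (137 ± 27), and kdm4c 74.4, 80.8 and 78.4 CPM (77.9 ± 3.24). The gene kdm4aa, knocked out in the study as kdm4ab was, had 17.5, 20.6 and 18.5 CPM (18.9 ± 1.62). Replicate 2 was highest for kdm4ab, kdm4c and kdm4aa and lowest for KDM4B.

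Genes of cell adhesion and movement used in gastrulation were present in 13 of 14 cases, with a median of 121 CPM. E-cadherin, cdh1, which holds the moving sheets together, had 604, 529 and 552 CPM (561 ± 38.4). The planar polarity proteins VANGL2 (483 ± 6.49 CPM) and PTK7 (482 ± 50.2 CPM), the snail factors snai2 (209 ± 24.2 CPM) and snai1a (208 ± 12.9 CPM) and the hyaluronan synthase HAS2 (187 ± 30.4 CPM) followed. The adhesion protein FN1 (ENSDARG00000006526, 4.88 ± 0.130 CPM) and pcdh8 (ENSDARG00000006467, 3.44 ± 0.581 CPM) were low, and the other paraxial protocadherin entry, ENSDARG00000102185, had no count.

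Segmentation genes were present in 5 of 13 cases (38.5%), near the 43.0% of all genes. LFNG, the fringe enzyme that modifies Notch, had 184, 154 and 187 CPM (175 ± 18.3), and the Notch ligand DLD 99.9, 89.3 and 98.3 CPM (95.8 ± 5.74). The oscillating repressors that define the clock were all under the threshold: her7 had 0.764, 0.831 and 0.971 CPM, her1 a mean of 0.481 CPM, her15.1 0.133 ± 0.0745 CPM and her12 0.0511 ± 0.0520 CPM. Values of her7 and her1 were chosen after they were seen.

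Neural plate genes were present in 24 of 64 cases (37.5%), near the 43.0% of all genes. Pan-neural genes were the most complete of them, 7 of 10, with the zinc-finger gene ZIC2 at 293, 259 and 293 CPM (282 ± 19.5) from ENSDARG00000037178 and SOX1 without a count in ENSDARG00000008131. Forebrain and eye-field genes were present in 5 of 17 cases. OTX1 had 106, 144 and 123 CPM (124 ± 18.6) and TCF7L1, the Wnt repressor headless, 61.5 ± 4.77 CPM, while the eye-field gene rx2 had no count, and OTX2, chosen after its values were seen, had 0.218 ± 0.0689 CPM. In midbrain and hindbrain 5 of 19 genes were present, led by her5, a repressor of neurogenesis at the midbrain-hindbrain boundary, at 196, 148 and 206 CPM (183 ± 31.0), and irx7 at 41.7 ± 3.53 CPM, and EGR2, the hindbrain segment gene krox20, had no count. At the neural plate border 7 of 18 were present, with TFAP2A at 69.5 ± 12 CPM and foxi1 at 24.4 ± 4.11 CPM.

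The enveloping layer is the outermost sheet of the blastula and gastrula, and its genes were listed together with those of the epidermis. Of 9 regulators on this joint list 8 were present. Besides grhl3 and GATA3, GRHL1, another grainyhead factor, had 20.02, 13.5 and 20.2 CPM, and TP63, the master factor of basal epidermis, 7.5 ± 0.661 CPM. The ionocyte factor foxi3a had no count. Of 12 listed keratins 6 (50%) were present, near the 43.0% of all genes, and of the whole keratin family 7 of 22 (31.8%). The listed keratins present were krt18a.1 (241, 193 and 248 CPM), krt4 (191, 155 and 195 CPM), krt8 (136, 106 and 128 CPM), krt5 (19.1 ± 1.15 CPM), krt97 (13.5 ± 1.45 CPM) and krt92 (7.67 ± 1.45 CPM). The periderm keratin krt17 (0.0550 ± 0.0319 CPM) and krt91 (0.0398 ± 0.0123 CPM) were near absent.

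Junction genes were present in 11 of 15 cases, led by cdh1, the adhesion molecule epcam (535 ± 17.7 CPM) and the tight-junction scaffold tjp3 (267 ± 8.17 CPM). PPL, the envelope protein periplakin, had 82.2 ± 6.0 CPM, the claudin cldne 76.8 ± 7.05 CPM and DSP, desmoplakin, 37.9 ± 3.3 CPM (ENSDARG00000076673). The epidermal claudin cldni (0.0589 ± 0.102 CPM) had counts in replicate 3 alone, and the annexin anxa1c had none. Across all claudins 15 of 40 (37.5%) were present, near the 43.0% of all genes. In that family cldn7b had the most counts, with 663, 604 and 689 CPM (652 ± 43.9).

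The yolk syncytial layer, the nucleated rim of the yolk that signals to the embryo and feeds it, had most of its regulators and few of its transport genes present. The regulators were present in 5 of 6 cases. The mix-type homeobox gene mxtx2 had 101, 71.3 and 109 CPM (93.8 ± 19.97), mxtx1 had 29.0, 24 and 32.0 CPM (28.3 ± 4.06), and the nuclear receptor HNF4A 12.3, 9.50 and 11.9 CPM (11.2 ± 1.52). All 3 were lowest in replicate 2. Of 16 lipoprotein and transport genes, the products that export yolk lipid, 3 were present: apoeb had 243, 197 and 224 CPM (221 ± 22.9), apoc1 3.39 ± 0.714 CPM and the lipid transfer protein MTTP 2.47 ± 0.748 CPM. The apolipoproteins apoa1b (0.00866 ± 0.0150 CPM) and apoa2 (no count) were absent or nearly so.

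Lists of later tissues and of hox genes stood lower as a pool, though not each list did. Over 255 genes of these lists pooled, 53 (20.8%) were present, 82 were near absent, 46 had no count, and the median was 0.163 CPM. Pronephros (8 of 13, 61.5%) and neuron and glia genes (15 of 30, 50%) lay above the 43.0% of all genes. Hatching gland (3 of 7, 42.9%) and neural crest and pigment genes (7 of 18, 38.9%) lay near it. A second pool held 171 genes, of which 138 (80.7%) were present, with a median of 29.4 CPM. It joined the maternal, zygotic activation, mesendoderm, dorsoventral, gastrulation movement, epidermis and enveloping layer, and germ cell lists. Neither pool held the yolk syncytial layer list (8 of 22 present) or the neural plate, notochord, segmentation clock, retinoic acid, KDM4, and Fgf and Wnt lists. The lists were drawn up with these levels known, so the contrast between the pools is a description of chosen genes.

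**Figure D4:**
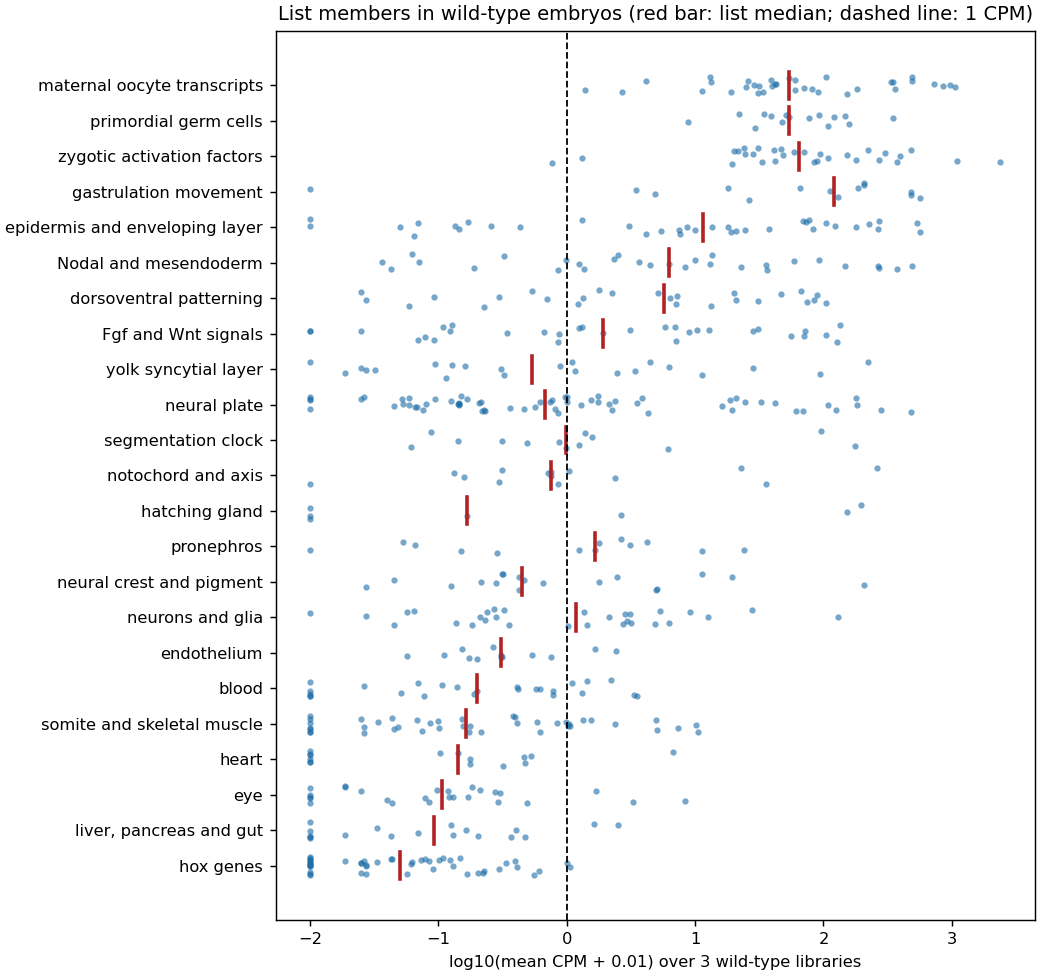
Mean level of every matched list member over the 3 wild-type libraries, as log10(mean CPM + 0.01), 1 dot per gene, with a red bar at the list's median and a dashed line at 1 CPM. Maternal, germ cell and zygotic activation genes lie to the right of the line, and heart, eye, gut and hox genes mostly to the left, with the column at the left edge holding genes without a count.

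No hox gene met the threshold in every library: 0 of 48 were present, 26 were near absent and 13 had no count. These factors specify position along the trunk. The summed level of all 48 was 6.90, 6.62 and 6.18 CPM. The posterior genes HOXC11 (0.863, 1.43 and 0.861 CPM), hoxc11b (1.18, 1.25 and 0.552 CPM) and HOXC10 (0.962, 0.312 and 0.508 CPM) had the most counts of the posterior groups. In the anterior groups these were hoxc3a (0.547 ± 0.213 CPM) and HOXB3 (0.381 ± 0.231 CPM), and in the central groups HOXB7 (0.113 ± 0.0309 CPM). HOXC11 passed 1 CPM in 1 library and hoxc11b in 2.

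Few skeletal muscle genes were present, and the determination factors were not among them. The determination factors MYOD1 and MYF5 and the differentiation factor MYOG had no count in any library, and MEOX1, a somite factor, had none either; MYOD1 was chosen after its values were seen. Regulators present were MEF2D (7.74, 13.9 and 10 CPM), MEF2C (ENSDARG00000029764, 5.06 ± 0.149 CPM), PAX3 (ENSDARG00000010192, 2.38 ± 0.558 CPM) and PAX7 (ENSDARG00000100398, 1.54 ± 0.245 CPM), 4 of 15. Contractile genes were present in 4 of 27 cases: both titin entries, TTN at 10.2 ± 1.61 CPM (ENSDARG00000028213) and 7.40 ± 1.02 CPM (ENSDARG00000000563), the calcium channel RYR1 (ENSDARG00000023797, 4.97 ± 1.06 CPM) and MYL1 (ENSDARG00000017441, 1.34 ± 0.225 CPM). The muscle parvalbumins pvalb1 and pvalb2 had no count.

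Heart genes were present in 1 of 15 cases, actn2b, an alpha-actinin, at 5.92, 7.24 and 7.09 CPM. The heart light chain cmlc1, the peptide hormone gene nppa and troponin T gene TNNT2 (ENSDARG00000020610) had no count. MYH6 (ENSDARG00000114031) had 0.520 ± 0.199 CPM, HAND2 0.461 ± 0.234 CPM and NKX2-5, the cardiac homeobox factor, 0.167 ± 0.126 CPM.

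Blood genes stayed low too. Erythroid genes were present in 2 of 14 cases, LMO2 (2.52, 2.23 and 1.83 CPM) and klf1 (1.01, 1.61 and 1.68 CPM), while the haem enzyme alas2 had 0.569 ± 0.319 CPM and the globin hbae1.1 no count. None of 9 globins was present, and their sum was 0.740, 0.338 and 0.375 CPM. Myeloid genes were present in 2 of 11 cases, the actin bundler LCP1 (3.52 ± 0.920 CPM) and the cytokine receptor CSF3R (3.31 ± 0.613 CPM), and the lysozyme gene lyz had no count. In endothelium the receptors tek (2.42 ± 0.521 CPM) and kdrl (1.66 ± 0.152 CPM) made 2 of 13, with the vascular master regulator etsrp, chosen after its values were seen, at 0.258 ± 0.188 CPM.

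Neuronal and glial genes gave a mixed list. Differentiated genes were present in 13 of 21 cases, a larger share than among all genes. Some list names, such as stmn1b and dlg4a, matched 2 entries by the unsuffixed symbol, and both were counted. How far this raised the share was not tested, so the share alone is not read as showing differentiated neurons. STMN1, the microtubule regulator stathmin, had 131 ± 8.16 CPM (ENSDARG00000004169), and tubb5, a tubulin, 27.9 ± 2.69 CPM. DLG4 (ENSDARG00000041926, 9.07 ± 0.627 CPM), GAD1 (ENSDARG00000093411, 6.23 ± 1.45 CPM) and DLG4 (ENSDARG00000039385, 5.28 ± 1.19 CPM), genes of synapses and of GABA synthesis, were present as well. The growth-cone gene gap43 (0.0550 ± 0.0503 CPM), the astroglial filament GFAP (0.0467 ± 0.0444 CPM) and SNAP25 (ENSDARG00000058117, 0.128 ± 0.161 CPM) were not. Of 9 genes listed as proneural 2 were present, ISL1 (2.85 ± 0.872 CPM) and ELAVL3 (2.12 ± 0.472 CPM), which are genes of neurons and not proneural factors. Among the proneural factors, NEUROD1 had 0.0346 ± 0.0600 CPM, ascl1b 0.0173 ± 0.0300 CPM and NEUROD4 no count.

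Neural crest and pigment genes were present in 7 of 18 cases, namely snai2, FOXD3, the receptor kinase ltk (11.3 ± 0.576 CPM), pnp4a (5.0 ± 1.36 CPM), the pigment enzyme TYR (4.95 ± 1.01 CPM), OCA2 (2.46 ± 0.0678 CPM) and DCT, which was chosen after its values were seen (1.77 ± 0.377 CPM). This share of 38.9% lay near the 43.0% of all genes. The melanosome protein pmela had counts in replicate 2 alone (0.0346 ± 0.0600 CPM). In the pronephros, the embryonic kidney, 8 of 13 were present, with nephrin, NPHS1, at 22, 25.5 and 24 CPM (23.8 ± 1.74). The early kidney factors PAX8 (0.0554 ± 0.0483 CPM), PAX2 (ENSDARG00000032578, 0.0433 ± 0.0750 CPM) and WT1 (no count) were not among them.

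Eye genes were present in 3 of 26 cases, among them ARR3, a cone arrestin, at 8.26 ± 0.839 CPM (ENSDARG00000098475) and the phosphodiesterase PDE6C at 1.69 ± 0.582 CPM. The lens crystallin crygm2d10 and the opsin opn1mw1 had no count. Liver, pancreas and gut genes were present in 2 of 18 cases, pdx1 (2.49 ± 0.359 CPM) and villin, VIL1 (1.62 ± 0.321 CPM), and the pancreatic genes PTF1A, ctrb.1 and amy2a had no count. In the hatching gland list the secretory factor XBP1 (195 ± 14.2 CPM), klf17 (152 ± 23.3 CPM) and CD63 (2.64 ± 0.287 CPM) were present, and the hatching enzymes he1.1 and he1.2 and the protease ctslb had no count in any library. Notochord genes were present in 4 of 14 cases, with lamc1 at 260 ± 6.05 CPM beside noto, tbxta and the collagen col8a1a (2.35 ± 0.239 CPM), whereas SHH (ENSDARG00000038867) had 0.147 ± 0.0550 CPM.

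Each cell type was also read by a short set of defining markers, set against the 43.0% of all genes that were present. These markers also belong to the lists above, so the sets are not separate evidence. The sets share genes with each other as well. SOX2 and SOX3 are in the pluripotent and neural plate sets, and tbxta and noto in the mesoderm and notochord sets. The endoderm set counts both CXCR4 entries. Primordial germ cell markers were present in 5 of 5 cases, those of pluripotent blastula cells in 4 of 5, dorsal organizer in 5 of 6, ventral ectoderm and mesoderm in 6 of 8, and endoderm and mesoderm in 5 of 7 each. Enveloping layer markers were present in 7 of 11 and yolk syncytial layer markers in 6 of 9. Markers were present in part for the neural plate (5 of 8), above the share of all genes. Near that share were basal epidermis (2 of 4), notochord (2 of 6), neurons (2 of 6) and myeloid cells (1 of 3), so these counts do not set the cell type apart. Under it were endothelium (1 of 4), pronephros (1 of 4), and neural crest and pigment cells (1 of 6). None of the markers of muscle (of 6), heart (of 5), erythroid cells (of 5), glia (of 2), lens and retina (of 7), liver and pancreas (of 4) or hatching gland (of 2) was present. The summed level over the hatching gland markers was 0 in all 3 libraries, over heart markers 0.592, 0.701 and 0.574 CPM, and over lens and retina markers 0.296, 0.493 and 0.464 CPM. Some full lists gave a lower share than the marker set, such as dorsal organizer (6 of 11), mesoderm (6 of 13), yolk syncytial layer (8 of 22) and neural plate (24 of 64). Others gave a higher share, such as pronephros (8 of 13) and neurons and glia (15 of 30).

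Gene families defined by symbol gave further high and low groups. The 13 protein-coding genes of the mitochondrial genome were all present and took 1.88%, 2.08% and 2.08% of the counts (2.01 ± 0.117%). Cytosolic ribosomal proteins were present in 79 of 83 cases, with a median of 64.6 CPM and a summed share of 0.665 ± 0.0253%; RPL3 had 288, 314 and 300 CPM. Heat shock proteins and their partners were present in 64 of 90 cases, led by HSPA8, HSP90AB1 (1110 ± 42.6 CPM) and HSPA5, the endoplasmic reticulum chaperone BiP (586 ± 34.3 CPM). Proteasome subunits were present in 41 of 49 cases, with PSMC3 at 193 ± 12.9 CPM.

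Odorant and trace amine receptors were all under the threshold. No odorant receptor was present (0 of 156, with 108 lacking a count) and no trace amine receptor (0 of 94, with 53 lacking a count). Lens crystallins were present in 4 of 60 cases and opsins in 2 of 29, opn7d (4.92 ± 0.0555 CPM) and opn6a (4.56 ± 0.323 CPM). Interleukins and chemokines were present in 5 of 72 cases, led by CXCL12, the ligand of Cxcr4, at 12.6, 10.3 and 13.3 CPM. Channels grouped by symbol as voltage-gated were present in 48 of 170 cases and GABA and glutamate receptors in 23 of 66. The channel pattern also took in KCNK potassium channels, which are not voltage-gated, and 1 of these, KCNK6, had 125 ± 3.14 CPM. The glutamate receptor subunit grin2ab had 141 ± 6.89 CPM.

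Developmental regulator families lay near the background of all genes or under it. Sox factors were present in 12 of 29 cases (41.4%), forkhead factors in 28 of 65 (43.1%), T-box factors in 5 of 22 (22.7%), Fgf ligands in 8 of 32 (25%) and Wnt ligands in 2 of 26 (7.69%). Among T-box factors tbx16 and EOMES reached 100 CPM and the median was 0.371 CPM.

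Lists of cell division, chromatin and RNA clearance were added after the levels had been seen. Genes of S and M phase were present in 20 of 20 cases, with the proliferation antigen mki67 at 1422, 1202 and 1302 CPM (1309 ± 110), geminin, GMNN, at 966 ± 45.7 CPM and CCNB2 at 869 ± 52.3 CPM. Of 12 entries listed as G1 cyclins and inhibitors, 9 were present. CCND1, a G1 cyclin, had 729, 602 and 752 CPM. The cell-cycle inhibitors CDKN1B (ENSDARG00000054271, 45.2 ± 5.27 CPM), cdkn1ca (26.5 ± 4.23 CPM) and cdkn1a (5.80 ± 0.574 CPM) were present. The other CDKN1B entry, ENSDARG00000029018, had 0.421 ± 0.281 CPM, and the inhibitor cdkn2a/b 0.0511 ± 0.0520 CPM. Chromatin genes were present in 33 of 38 cases. UHRF1, which guides maintenance DNA methylation, had 1335 ± 52.2 CPM and DNMT1, the maintenance methyltransferase, 494, 707 and 523 CPM, while TET2, which oxidises methylcytosine, had 0.0294 ± 0.0510 CPM and ezh1 0.502 ± 0.0906 CPM beside EZH2 at 255 CPM. RNA-binding and clearance factors were present in 25 of 25 cases, with KHSRP at 797 ± 30.6 CPM, BTG2 at 659 ± 31.1 CPM and the deadenylase scaffold CNOT1 at 542 ± 30.8 CPM.

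Zebrafish keep many gene pairs from a genome duplication in their ancestry. Symbols with 2 entries can be such pairs or tandem copies, and pairs with suffixed symbols, such as kdm4aa and kdm4ab, are left out here. Of 1719 symbols with exactly 2 entries, both were present for 683, 1 of them for 555 and neither for 481. A difference was thus less common than both being present, and how often unrelated genes differ was not tested. For 60 symbols 1 entry had a mean of 10 CPM or more while the other was near absent. EOMES, NOG and BMP2 had 1 entry present and the other under 1 CPM, and SOX11, CXCR4 and RDH10 had both entries present. Sharing of reads between near-identical copies makes single entries uncertain.

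The 3 libraries were close to each other. Over 9284 genes with a mean of 10 CPM or more the median coefficient of variation (SD over mean) was 6.46%, and 6814 genes (73.4%) had 10% or less. The correlation of log2(CPM + 1) across genes was 0.997 for each pair of libraries, over genes that are not independent replicates. To see whether a library had been deposited more than once, the chi-square per gene was computed for each pair. Its mean over genes is near 1 for repeat counts of the same library. The mean was 21.0 for replicates 1 and 2, 10.2 for 1 and 3, and 12.1 for 2 and 3, so each library was counted as 1 sample. These values cannot tell whether the libraries came from separate clutches or groups of embryos, which the labels leave unstated. The median over genes was 4.51, 3.31 and 3.33 for the same pairs. Genes at least 1.5-fold above the mean of the other 2 libraries numbered 10, 58 and 2, and genes as far below numbered 30, 26 and 3.

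The most variable gene at a mean of 10 CPM or more, ENSDARG00000113671, has no symbol and was highest in replicate 3, at 51.6, 40.6 and 96.3 CPM (coefficient of variation 47.0%). Among the 10 most variable genes with a symbol, 7 were highest in replicate 2. STRADB, a partner of the kinase LKB1, had 10.3, 20.05 and 10.8 CPM, SSH2, a cofilin phosphatase, 77.3, 148 and 85.2 CPM, and TENT4A, an RNA-tailing polymerase, 35, 65.2 and 40.8 CPM. The others with this order were dip2cb (30.2, 59.5 and 36.8 CPM), KIF19, a kinesin (10.1, 18.6 and 10.8 CPM), CCNI2 (8.75, 15.0 and 8.52 CPM) and them4 (7.45, 13.9 and 8.81 CPM). In all 7 replicates 1 and 3 lay close together. The exceptions were sesn3, a sestrin of the stress response, at 19.1, 10.1 and 8.63 CPM, si:ch1073-385i9.2 at 27.6, 14.0 and 18.8 CPM and tgm2l, a transglutaminase, at 16.4, 8.13 and 12.6 CPM, all highest in replicate 1.

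Early zygotic genes as a group were lowest in replicate 2. Of the 26 list members with a mean of 1 CPM or more, 25 had their lowest CPM there; among all 9284 genes with a mean of 10 CPM or more, 31.1% did. The median log2 ratio of the library's CPM to the gene's mean was 0.13, -0.26 and 0.10 for these genes, and -0.03, 0.02 and 0.00 for all genes. Their summed level was 3046, 2321 and 2970 CPM. The exception was apela, the peptide hormone toddler, at 19.5, 19.7 and 25.2 CPM, which was lowest in replicate 1; it was named for being the exception.

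Several lists of embryonic patterning had the same order. Ventral BMP-side genes, which include vox, vent and ved of the early zygotic list, were lowest in replicate 2 in 10 of 12 cases. Regulators of epidermis and enveloping layer were lowest there in 7 of 8. They include grhl3 of the early zygotic list and share GATA3 and tfap2c with the ventral list, so these lists partly count the same genes. Enveloping layer keratins, which share no gene with the early zygotic list, were lowest there in 5 of 6. Oocyte and egg genes ran the other way, with 17 of 25 highest in replicate 2, against 44.7% of all genes, and a summed level of 6257, 6864 and 6471 CPM. Germ cell genes (7 of 15 highest in replicate 2) and egg coat genes (2 of 10) did not share that order. With totals scaled by TMM or by DESeq2 size factors all 26 early zygotic genes, apela included, were lowest in replicate 2, against 37.8% and 36.9% of all genes. The replicate 2 library also had the smallest total, whose part in this pattern was not tested.

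**Figure D5:**
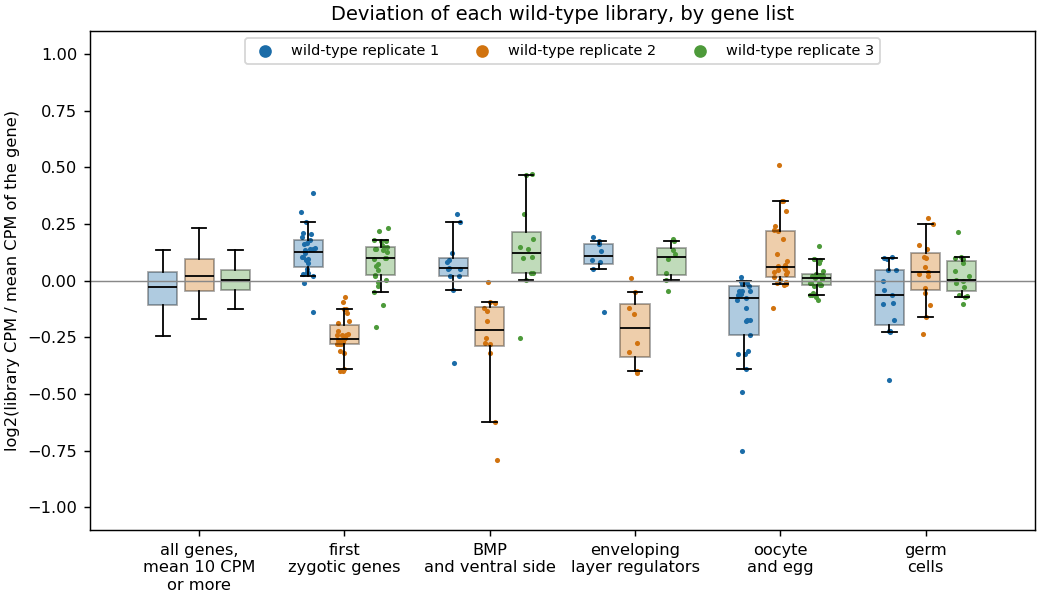
Log2 ratio of each library's CPM to the gene's mean over the 3 wild-type libraries, for all genes with a mean of 10 CPM or more and for list members with a mean of 1 CPM or more; points are genes, boxes span the quartiles with the median as a line, and whiskers reach the 5th and 95th percentiles. Replicate 2 lies below 0 for early zygotic genes (median -0.26), ventral genes and the regulators of epidermis and enveloping layer (labelled enveloping layer regulators). It lies above 0 for oocyte and egg genes (median 0.06).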

How the data were processed

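The deposited file is a table of raw counts, whole reads per Ensembl gene, with 1 column per library; the builds GRCz11 and danRer11 are named in the submitters' processing notes. Neither the read aligner nor the counting tool, gene annotation version or strandedness is given in the sources used here, so values of overlapping, antisense or near-identical genes are uncertain. Per the labels' protocols, mRNA was selected on poly-T beads. Every column was mapped to a sample by its label; 3 of 9 columns were used.

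CPM was computed here as counts per 1000000 of the column sum (Python 3.11.15, pandas 2.3.3, numpy 2.4.6), with no filter. With 1 group there was no test and no p-value. TMM (edgeR 4.0.16) and size factors (DESeq2 1.42.0), in R 4.3.3, served only as other scalings. The steps were tested on simulated data with 200 changed genes.

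Symbols came from a table that covers 29201 of 32520 genes. Of 632 list names 612 matched, 447 by symbol, 12 by a synonym in the RefSeq table (GRCz12tu) and 153 by the unsuffixed symbol, and 20 did not. A list name could match several entries, as tnni2a.4 did with 6, and each entry was counted as a member. Families are symbol patterns, corrected after their members were seen. The lists and families were chosen with earlier results of these data known. Named genes are the 20 with most counts, up to 6 highest and 3 lowest per list role, up to 3 per family, the 10 most variable with a symbol at a mean of 10 CPM or more, both entries of shared symbols, the KDM4 genes and CYP26A1. Some genes that this rule names are not reported here. Levels of different genes were not ordered per length, since no transcript or protein lengths were used here, and no sequences are shown.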

Additional observations from a re-analysis of the deposited data

How the results depend on the processing

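No paired analysis was possible because only the wild-type group was used and no test was run. The number of genes at 1 CPM or more in every library (13988) lay between 12602 at a threshold of 2 CPM and 15366 at 0.5 CPM, and was 13973 with TMM, 13998 with DESeq2 size factors, 13990 after thinning to the smallest total, 14622 by the mean, and 14157 to 14206 when 1 replicate was left out. Over all lists fixed for this work, 242 members were present, between 212 and 270 under the same alternatives. The share of the 20 genes with most counts came to 2.84% once the mitochondrial genome and those 20 genes were taken out of the totals and the next 20 were read, and to 5.0% to 5.1% when 1 replicate was left out. The median coefficient of variation was 8.92% for genes with a mean of 1 CPM or more, and 4.55% to 6.77% when 1 replicate was left out; 2 libraries remain in that case. Of 76 list and family counts, 11 moved by over 1.5 times at 0.5 CPM, 13 at 2 CPM, 5 by the mean, and 1, 0 and 2 without replicates 1, 2 and 3; none moved under TMM, DESeq2, thinning or the smaller totals. No hox gene was present in all libraries, but hoxc11b passed without replicate 3 and HOXC11 by its mean. Of 805 named genes, the 461 with a mean of 1 CPM or more kept between 0.994 and 1.005 times their mean under TMM or DESeq2 scaling, and between 0.699 and 1.305 times without 1 replicate; genes under 1 CPM lay between 0 and 1.5 times without 1 replicate. The planned order of levels between genes per coding length was not run, since no lengths were used. Replicate order within lists and the added lists were alternatives chosen after seeing the data. Genes under about 0.1 CPM rest on a few counts, and their order between libraries is not readable at this depth.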
